A study of Mus musculus with 4 samples.

Results

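The genes described here encode the readers of DNA methylation: Mbd1, Mbd2, Mbd3, Mbd4 and Mbd5, which share a methyl-CpG binding domain, and Zbtb33, which encodes the zinc finger protein Kaiso. They were followed in mouse gonocytes, the male germ cells of the testis around birth, that had been exposed to retinoic acid (RA), a product of vitamin A and the ligand of nuclear receptors. The members were every probe set that the array annotation assigned to 1 of these 6 genes alone, and 13 of the 34945 probe sets that named a single gene qualified. They covered 5 of 18193 genes: 5 probe sets for Mbd1, 3 for Mbd4, 2 each for Mbd2 and Zbtb33 and 1 for Mbd3. Mbd5 is not analysed here. Mbd1 drew attention to the family through its own RA against vehicle values in these arrays, so those values are given as a description with no test.

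The cells came from testes of mice at 2 days post partum and were enriched with magnetic beads for the surface protein THY1. They were cultured for 8 h without serum, growth factors or feeder cells, either with 100 nM RA (2 samples) or with ethanol, the vehicle (2 samples). Each sample was hybridised to 1 Affymetrix expression array, and each of the 4 arrays gave 1 signal per probe set on a linear scale. The sources used here give no strain, and they are silent on whether each sample had its own animals or culture, so the spread between samples may be technical. Because the samples were bulk, a change in RNA per cell and a change in the number of cells of a type cannot be told apart.

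The median signals of the arrays lay at 26.6 and 26.9 with RA and at 27.5 and 29.5 with vehicle, and precision is limited by there being only 4 arrays. The germ cell markers Ddx4 and Dazl, both RNA regulators of germ cells, were bright on all 4 arrays: Ddx4 had signals of 1299.8 and 1121 with RA and of 1305 and 1289 with vehicle, and Dazl had 1514 and 1296 with RA and 1606 and 1603 with vehicle. The groups overlapped for Ddx4, while both RA arrays were the lower ones for Dazl. Markers of other testis cells were also present. The summed signal of 6 mast cell markers was 2106 and 6578 with RA and 3062 and 6861 with vehicle, and that of 6 stromal and peritubular markers was 8137 and 10857 with RA and 7527 and 9645 with vehicle. The RA exposure was visible in its known targets: Stra8, a gene of meiotic initiation, had signals of 783 and 1477 with RA against 188 and 53.3 with vehicle, and Rarb, an RA receptor, had 95.4 and 90.5 with RA against 14.9 and 6.56 with vehicle. In both, each RA array lay above each vehicle array. The vehicle mean of Rarb (10.7) was below 16, the limit of the signal filter described below. Rarb passed that filter only through its RA signals, and its difference rests on vehicle values near background.

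Methylation of cytosine at CpG sites is read by proteins that bind the methylated site and bring in enzymes that change chromatin. MBD1 carries a methyl-CpG binding domain together with CXXC zinc fingers and represses transcription with the H3K9 methyltransferase SETDB1. MBD2 and MBD3 are alternative subunits of NuRD, a remodelling and deacetylase complex, but mammalian MBD3 has little preference for methylated DNA. MBD4 is a glycosylase that removes thymine left by deamination of methylcytosine, MBD5 associates with a histone H2A deubiquitinase, and Kaiso uses zinc fingers in place of the methyl-CpG binding domain. Male germ cells re-establish DNA methylation before birth, after its erasure in primordial germ cells.

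The promoters of 4 of the 6 genes (Mbd3, Mbd4, Mbd5 and Zbtb33) were in the RefSeq table of build GRCm38.p6, as windows from 250 bases before to 50 bases after the gene start. Those of the 3 genes among them with array values are shown with their CpG sites. They belong to the members whose RA and vehicle signals largely overlapped. Methylation of these sites was not measured. CpG sites are in capitals.
Mbd3, chr10:80399482-80399781, minus strand: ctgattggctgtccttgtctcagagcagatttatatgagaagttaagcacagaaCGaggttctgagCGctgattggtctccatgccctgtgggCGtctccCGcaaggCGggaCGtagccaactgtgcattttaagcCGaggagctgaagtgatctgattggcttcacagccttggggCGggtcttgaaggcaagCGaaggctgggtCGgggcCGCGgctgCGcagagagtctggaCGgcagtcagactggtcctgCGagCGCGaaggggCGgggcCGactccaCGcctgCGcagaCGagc
Mbd4, chr6:115853292-115853591, minus strand: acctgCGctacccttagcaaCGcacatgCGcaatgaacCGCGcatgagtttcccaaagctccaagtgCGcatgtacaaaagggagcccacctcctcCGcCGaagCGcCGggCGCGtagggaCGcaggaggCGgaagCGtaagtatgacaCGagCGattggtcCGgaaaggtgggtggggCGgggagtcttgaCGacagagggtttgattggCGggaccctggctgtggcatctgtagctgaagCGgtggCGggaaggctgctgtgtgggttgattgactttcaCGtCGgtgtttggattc
Zbtb33, chrX:38189543-38189842, plus strand: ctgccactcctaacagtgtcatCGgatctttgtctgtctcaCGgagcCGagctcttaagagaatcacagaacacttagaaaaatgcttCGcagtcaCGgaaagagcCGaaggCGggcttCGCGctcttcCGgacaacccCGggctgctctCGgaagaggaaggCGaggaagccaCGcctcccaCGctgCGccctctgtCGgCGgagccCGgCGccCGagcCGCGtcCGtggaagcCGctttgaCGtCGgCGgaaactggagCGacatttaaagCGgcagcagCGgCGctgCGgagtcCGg

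The windows held 22 CpG sites in Mbd3, 25 in Mbd4 and 34 in Zbtb33, against a median of 7 over all 32851 promoter windows of the table. At least as many sites as in Zbtb33 were found in 7.73% of all windows, and at least as many as in Mbd3 in 23.1%. Both windows of Mbd5 were searched too and held 19 and 4 sites. RA receptors bind direct repeats of a hexamer, searched here as AGGTCA and its variants, namely AGTTCA, the variant GGGTCA and the variant GGTTCA, on both strands, with 1, 2 or 5 bases between the repeats. No such repeat was in the windows of Mbd3, Mbd4, Mbd5 or Zbtb33, where 0.588% of all windows held one and 43.7% held at least 1 single hexamer. Mbd4 and each window of Mbd5 held 1 single hexamer, while Mbd3 and Zbtb33 held 0. The same search found a repeat with a spacer of 5 in 2 of the RA targets, shown for comparison with the hexamers in capitals.
Rarb, chr14:16575503-16575539, minus strand: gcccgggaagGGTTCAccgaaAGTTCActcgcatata
Cyp26a1, chr19:37697766-37697802, plus strand: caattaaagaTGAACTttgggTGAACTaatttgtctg
Matches are letters in these windows only, and the windows of the RA targets Stra8, Dhrs3 and Stra6 held no repeat either. No window of Mbd1 or Mbd2 was searched, so nothing about the Mbd1 difference is read from this search.

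Mbd1 was the member whose signal differed between the groups on every probe set. Its brightest probe set, 1417968_a_at, had signals of 814 and 897 with RA, against 214 and 220 with vehicle. Both RA arrays were far above both vehicle arrays, and the 2 arrays of each group lay close together. The mean was 856 ± 58.6 with RA and 217 ± 4.13 with vehicle (SD, n = 2 each). On the log2 scale, after 5 was added to each signal to steady dim values, the difference was 1.95 ± 0.19 (SE, n = 2 each), a 3.88-fold higher value of signal + 5 with RA. All folds and log2 differences below are on this scale, which understates those of dim probe sets. The lowest RA signal was 3.71 times the highest vehicle signal.

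The second probe set, 1437061_at, was designed on a different transcript sequence and gave signals of 520.4 and 461 with RA, against 137 and 117 with vehicle. The groups were again far apart, with a log2 difference of 1.91 ± 0.20 (SE) and a 3.76-fold higher value with RA. These 2 probe sets, the bright ones, gave nearly the same difference.

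The remaining 3 probe sets of Mbd1 were designed on 1 shared cDNA, so they are not independent of each other. Probe set 1453678_at had signals of 177 and 105 with RA, against 26.4 and 25.8 with vehicle (log2 difference 2.19 ± 0.32, SE). Probe set 1430837_a_at had signals of 68.2 and 85.1 with RA, against 12.5 and 9.24 with vehicle (2.36 ± 0.31, SE). Probe set 1430838_x_at, whose suffix marks probes that can also bind other transcripts, had signals of 70.0 and 51.3 with RA, against 11.0 and 18.1 with vehicle (1.76 ± 0.34, SE). In all 3 the groups were separate, while the RA arrays differed from each other by more than on the brightest probe set. On 1453678_at the second RA array was lower than the first by 0.72 on the log2 scale, against 0.14 higher on the brightest probe set. The vehicle signals of the last 2 probe sets were not far above the added 5, which pulls their differences towards 0.

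**Figure D1:**
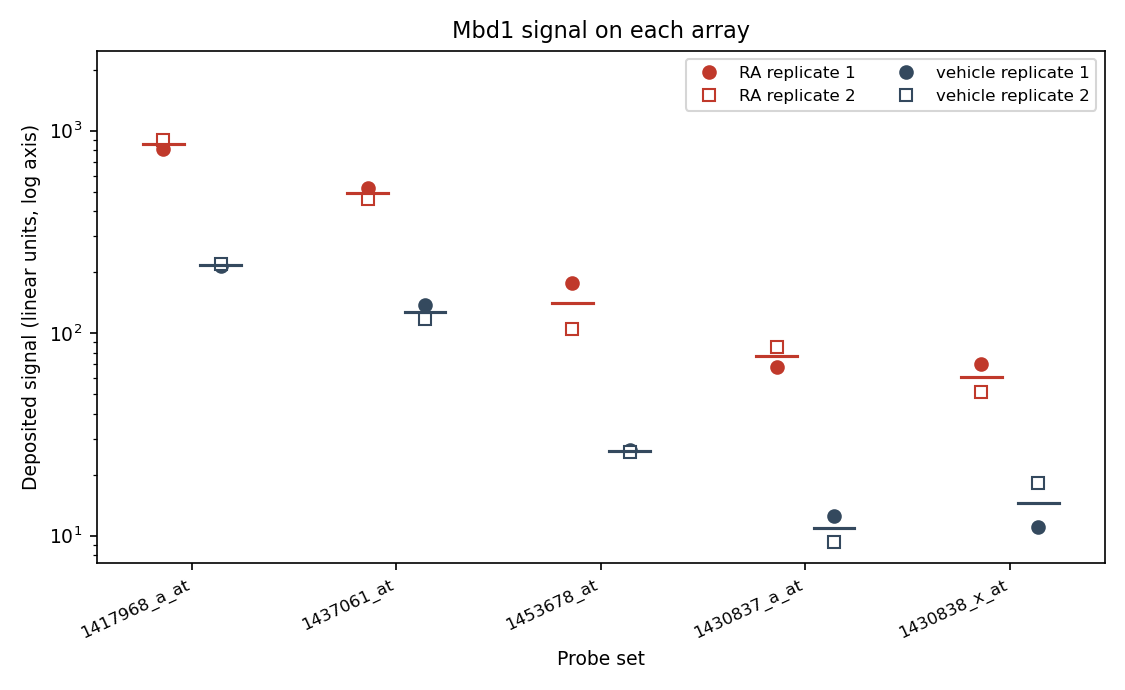
Signal of the 5 Mbd1 probe sets on each array (log axis, linear signal units), RA in red to the left of vehicle in dark blue, with filled circles for replicate 1, open squares for replicate 2 and a bar at the mean of each group. On every probe set both RA points lie above both vehicle points, by a factor of 2.84 to 5.45 between the nearest points, and levels of different probe sets cannot be compared.

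Over the 5 probe sets the fold of signal + 5 ran from 3.38 to 5.14. They held places 7, 14, 16, 20 and 25 from the highest log2 difference among the 27022 probe sets kept by the filter, which removed those with a mean signal in the lowest 40%, under 16. The vehicle means of 1430837_a_at (10.9) and 1430838_x_at (14.5) were below that limit, so these 2 passed only through their RA signals, and their places and folds rest on vehicle values near background. Both RA arrays exceeded both vehicle arrays on 5 of 5 Mbd1 probe sets, and on 12.7% of all probe sets kept, while 15.2% of those had both RA arrays lower. A log2 difference of at least 1 was found on 5 of 5, and on 0.389% of all probe sets kept, while 0.492% had a difference of −1 or less. Since Mbd1 was picked for this difference, nothing is read from these counts. In the fit across all probe sets (limma with Benjamini-Hochberg adjustment), 0 of 27022 probe sets passed an adjusted p of 0.05, so 0% were called in either direction. At an unadjusted p under 0.05 there were 303 higher and 446 lower.

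The spread between replicates is given as a description too, since Mbd1 was picked on these values. For the brightest Mbd1 probe set the RA arrays differed by 0.14 and the vehicle arrays by 0.04 on the log2 scale. Over all probe sets kept, the median absolute difference was 0.328 between the RA arrays and 0.25 between the vehicle arrays. With 1 array left out in turn, the log2 difference of 1417968_a_at stayed between 1.89 and 2.02 and that of 1437061_at between 1.80 and 2.02. The widest range among the Mbd1 probe sets was 1.83 to 2.55, on 1453678_at.

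Mbd2 and Mbd3, the NuRD-bound members, did not separate the groups. The brighter Mbd2 probe set had signals of 828 and 854 with RA, against 699 and 894 with vehicle, and both RA values lay between the vehicle values. Its log2 difference was 0.09 ± 0.21 (SE), with a 95% interval of −0.40 to 0.58. The other Mbd2 probe set had signals of 70.2 and 66.5 with RA and of 75.1 and 65.7 with vehicle, with a difference of −0.04 ± 0.26 (SE; 95% interval −0.63 to 0.55), and the groups overlapped. The single probe set of Mbd3 had signals of 148 and 227 with RA, against 165 and 153 with vehicle. The first RA array was the lowest of the 4 and the second the highest, so the difference of 0.20 ± 0.26 (SE; 95% interval −0.40 to 0.79) rested on 1 array. Leaving out RA replicate 2 gave −0.10, and leaving out RA replicate 1 gave 0.50.

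Mbd4, the thymine glycosylase, had 3 probe sets with small negative differences. The brightest had signals of 99.1 and 60.1 with RA, against 111 and 88.0 with vehicle, and a log2 difference of −0.34 ± 0.30 (SE; 95% interval −1.04 to 0.37). The groups overlapped there. The second, 1457708_at, had signals of 15.7 and 16.1 with RA, against 17.7 and 17.6 with vehicle. It was the 1 probe set outside Mbd1 on which the groups did not overlap, but the difference was only −0.12 ± 0.31 (SE) at a signal just above the filter. It was −0.04 with quantile normalization and also with equal array medians. The third, below the filter, had signals of 10.5 and 9.44 with RA and of 13.0 and 9.07 with vehicle.

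Zbtb33, the Kaiso gene, was bright on 1 probe set and dim on the other. The bright one had signals of 666 and 421 with RA, against 549 and 515 with vehicle, so that the RA values lay on either side of the vehicle values. Its log2 difference was −0.01 ± 0.25 (SE; 95% interval −0.59 to 0.58). The dim probe set, below the filter, had signals of 19.4 and 8.28 with RA and of 17.0 and 18.1 with vehicle, where the lower RA array set the difference of −0.32 ± 0.39 (SE). On both probe sets the second RA array was lower than the first, by 0.66 and 0.88 on the log2 scale.

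**Figure D2:**
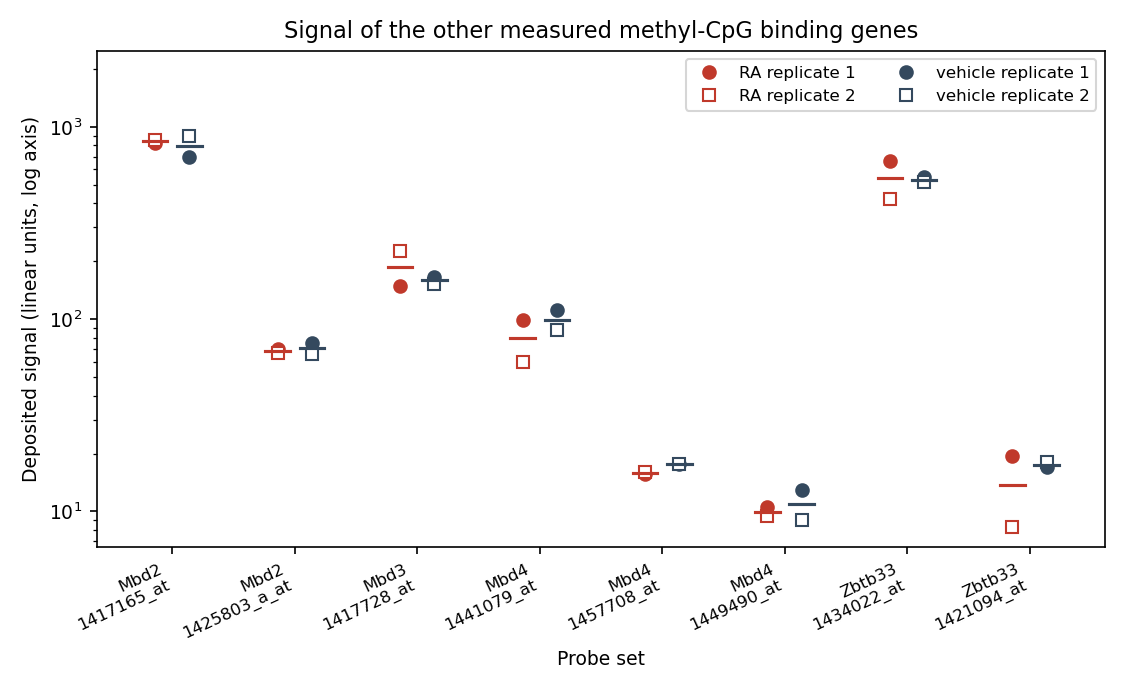
Signal of the 8 probe sets of Mbd2, Mbd3, Mbd4 and Zbtb33 on each array (log axis, linear signal units), RA in red to the left of vehicle in dark blue, with filled circles for replicate 1, open squares for replicate 2 and a bar at each group's mean. The groups overlap on 7 of the 8 probe sets, and levels of different probe sets cannot be compared.

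Of the 8 probe sets outside Mbd1, 6 passed the filter. Both RA arrays exceeded both vehicle arrays on 0 of the 8 and fell short of both on 1, where 12.4% and 16% of all 45037 probe sets did so. Their log2 differences ran from −0.34 to 0.20, with a median of −0.06, against a median of −0.0165 for all probe sets kept, of which the middle 90% spanned −0.53 to 0.40. The 5 Mbd1 probe sets stood between 1.76 and 2.36. A test of Mbd1 against its relatives is not given, because Mbd1 was chosen on this contrast.

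**Figure D3:**
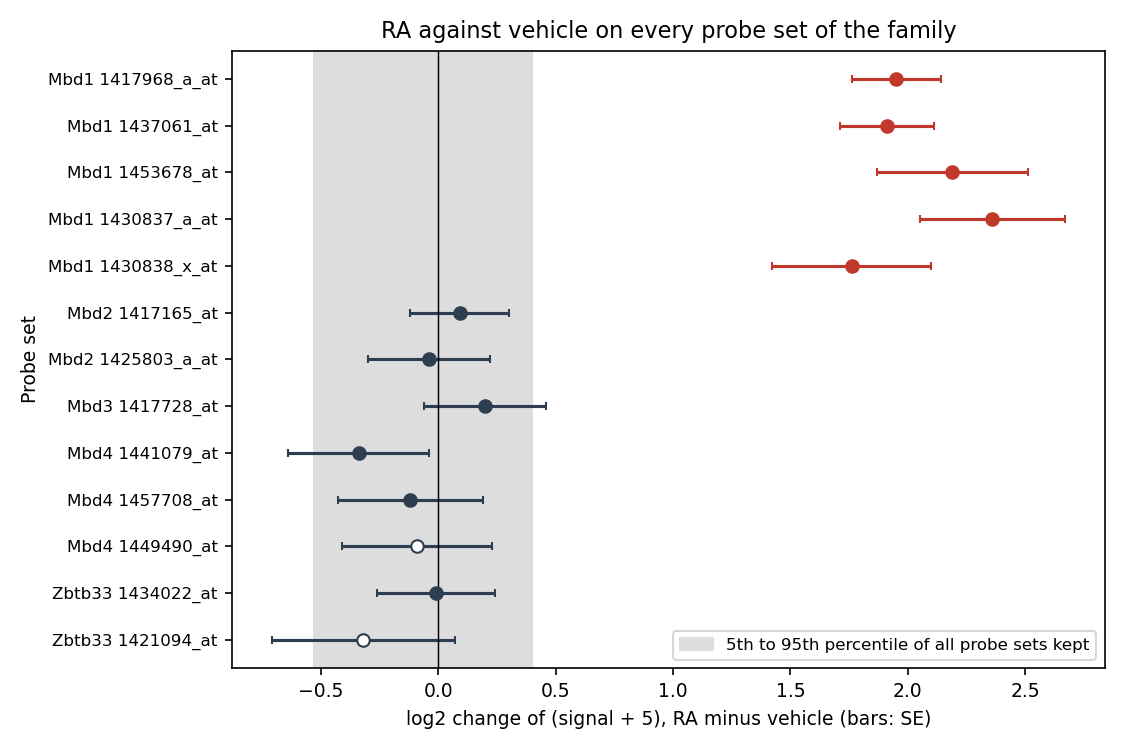
Log2 difference, RA minus vehicle, of signal + 5 for each of the 13 probe sets (points, with bars of 1 SE, n = 2 arrays per group), Mbd1 in red and the other members in dark blue, with open points for probe sets below the filter. The grey band spans the 5th to 95th percentile of all probe sets kept, −0.53 to 0.40, and all points outside Mbd1 lie within it while the Mbd1 points lie between 1.76 and 2.36.

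Read next were 7 lists holding 66 genes, with partners and relatives of the members, repair genes, other CpG readers and DNA methylation enzymes. Of these genes, 59 had a probe set of their own, all above the filter on the brightest one. None of the 59 reached a log2 difference of 1 in either direction, where 0.561% of 13018 genes did so upwards and 0.422% downwards. The RA arrays were both the higher ones in 9 of the 59, where 14.2% of all genes had this pattern, and both the lower ones in 6 of the 59, where 12.6% of all genes did. The median log2 difference of the 59 was −0.00434, against 0.0149 over all genes, and their values ran from −0.63 to 0.39. No list member passed the adjusted threshold in either direction, as no gene did.

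The partners through which MBD1 acts showed no difference of the size seen in Mbd1. Setdb1, the H3K9 methyltransferase, had signals of 389.7 and 271 with RA and of 393 and 319.9 with vehicle, a log2 difference of −0.12 ± 0.24 (SE). Atf7ip, the adaptor between MBD1 and SETDB1, had 378 and 389 with RA and 437 and 346 with vehicle (−0.02 ± 0.20, SE). In both genes the groups overlapped. Across the 5 of 7 partners analysed here the median was −0.0202, from Atf7ip2, a relative of that adaptor, at −0.42 to Trim28, a corepressor that also recruits SETDB1, at 0.33. With the mean of all probe sets in place of the brightest, the median of this list was −0.341.

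The 12 NuRD subunits had a median of 0.0838, with 8 positive and 4 negative values. Chd4, the remodelling ATPase, was at −0.19 ± 0.20 and the lowest, and Mta1, a scaffold subunit, at 0.22 ± 0.20 was the highest (SE, n = 2 each). Hdac1, a deacetylase, was at 0.16 ± 0.20, and Gatad2a, which bridges MBD2 or MBD3 to the remodeller, at 0.05 ± 0.26. Among 9 of 12 genes of base excision and mismatch repair, the median was 0.0256. Apex1, the endonuclease that cuts at the abasic site, stood at −0.03 ± 0.21, and the extremes were the scaffold gene Xrcc1 at 0.22 and the glycosylase gene Smug1 at −0.17.

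The deubiquitinase complex that can hold MBD5 or its relative MBD6 had a median of 0.0289 over 10 genes. Mbd6 had signals of 1076 and 1141 with RA, against 1170.2 and 957 with vehicle (0.07 ± 0.21, SE), and the groups overlapped. Bap1, the catalytic subunit, was at 0.06 ± 0.24 and Foxk1, a DNA-binding partner, at 0.08 ± 0.19, between Asxl1, the cofactor of BAP1, at 0.39 ± 0.30 and the demethylase gene Kdm1b at −0.39. Around Kaiso, 6 of 8 genes had a median of −0.176. Ctnnd1, the p120 catenin that binds Kaiso, was at 0.07 ± 0.20, while the Kaiso relatives Zbtb4 and Zbtb38 were at −0.32 ± 0.24 and −0.20 ± 0.24. The deacetylase gene Hdac3 was the highest of this list at 0.14, and without vehicle replicate 2 the median of the list was −0.0155.

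Other proteins that read CpG sites had a median of 0.0149 over 10 genes. Uhrf1, which guides DNMT1 to newly replicated DNA, stood at −0.03 ± 0.23 and Kmt2a, a CXXC histone methyltransferase, at −0.02 ± 0.20. The extremes were both CXXC proteins, Fbxl19 at 0.31 and Cxxc5 at −0.35. The 7 genes of proteins that write or oxidise the mark, or that assist in this as DNMT3L does, had a median of −0.148. Dnmt1, the maintenance methyltransferase, was highest at 0.29 ± 0.29 and Dnmt3b, a de novo methyltransferase, stood at −0.15 ± 0.22. Tet1, a dioxygenase, was the lowest of all 59 genes, with signals of 95.9 and 54.7 with RA, against 115 and 115 with vehicle (−0.63 ± 0.30, SE). For Tet1 each RA array was lower than each vehicle array, though the second RA array was far below the first.

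**Figure D4:**
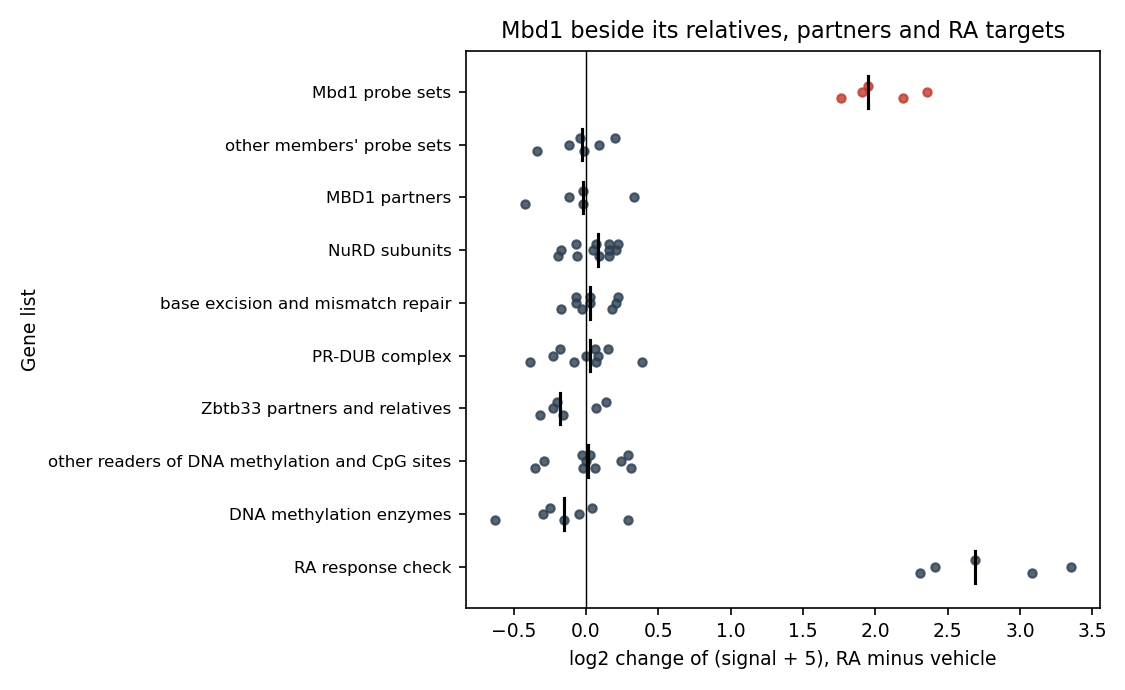
Log2 difference, RA minus vehicle, of signal + 5 for the 5 Mbd1 probe sets (red), the 6 probe sets of other members above the filter and the genes of each list above the filter (dark blue, 1 point per gene on its brightest probe set), with a black bar at each median. The other members and the 59 genes of the 7 family lists lie between −0.63 and 0.39, while Mbd1 lies between 1.76 and 2.36 and the 5 RA targets between 2.31 and 3.35. Among these targets, Rarb passed the filter only through its RA signals.

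The genes that lie next to Mbd1 and Mbd2 in the gene table were also read. Cxxc1, a CpG-binding subunit of a histone methyltransferase complex and the neighbour of Mbd1 on one side, had signals of 420.1 and 395 with RA, against 362 and 329 with vehicle. The RA arrays were both higher than the vehicle arrays, with a log2 difference of 0.24 ± 0.19 (SE), while its dim second probe set overlapped. Cfap53, a cilia and flagella gene on the other side, had 43.3 and 24.3 with RA and 30.5 and 14.1 with vehicle (0.53 ± 0.41, SE), and the groups overlapped. The neighbours of Mbd2 were Poli, a DNA polymerase gene, at 0.46 ± 0.32 and Dcc, a netrin receptor gene, at −0.41 ± 0.58 on its brightest probe set (SE). The other Dcc probe sets, both below the filter, were at −0.81 ± 0.32 with both RA arrays lower and at 0.12 ± 0.36 with overlap (SE). Neither Mbd1 neighbour came near the difference of 1.95 on the brightest Mbd1 probe set.

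The profiles most like that of Mbd1 were found among 13017 other genes by the Euclidean distance between log2 values over the 4 arrays, each gene centred on its own mean. The nearest were Ccdc88b, which encodes a coiled-coil protein, at a distance of 0.19, Tmem119, which encodes a transmembrane protein, at 0.24, 1700031F05Rik at 0.38, Spon2, an extracellular matrix gene, at 0.45 and Cidea, which encodes a lipid droplet protein, at 0.47. The sixth gene was also at 0.47, so the list has no sharp end. The vehicle means of Ccdc88b (14.1), 1700031F05Rik (5.4) and Spon2 (5.97) were below the filter limit of 16. These genes passed only through their RA signals, and their profiles rest on vehicle values near background. A second, dim probe set of Spon2, below the filter, had overlapping groups (0.21 ± 0.28, SE). Tmem119 had signals of 301 and 384 with RA, against 80.3 and 98.2 with vehicle (log2 difference 1.88 ± 0.23, SE). Ccdc88b had 57.3 and 73.2 with RA, against 13.0 and 15.3 with vehicle (1.87 ± 0.30, SE). All 5 had both RA arrays above both vehicle arrays, as any gene with this likeness must. Mbd3 was at a distance of 1.79, Mbd2 at 1.88, Zbtb33 at 2.04 and Mbd4 at 2.38.

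**Figure D5:**
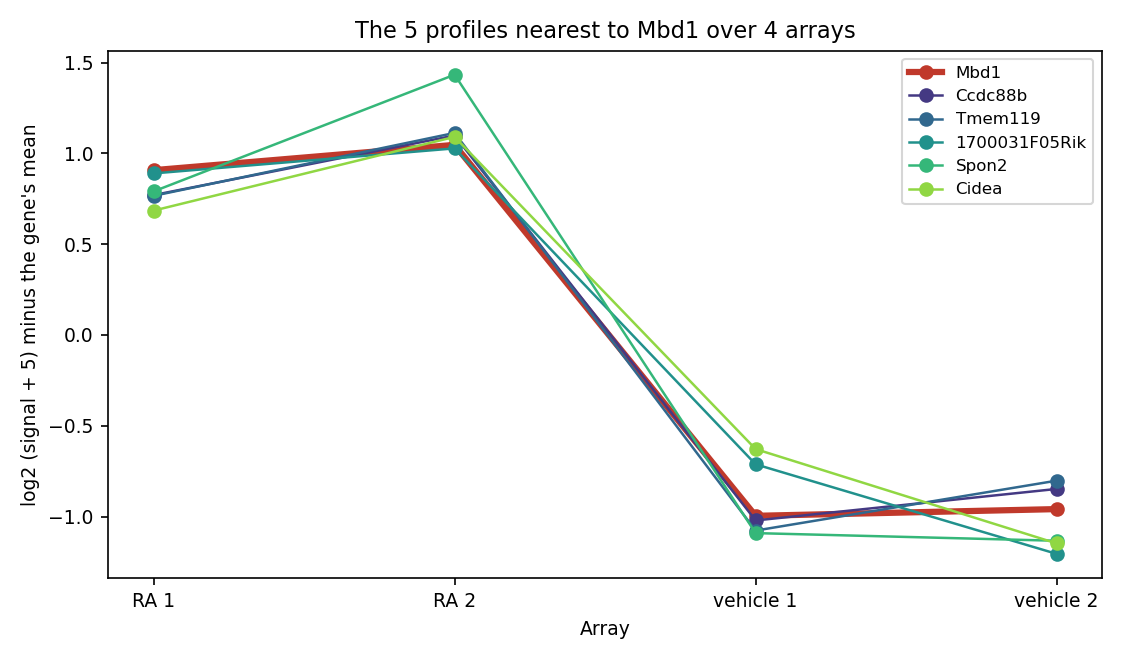
Log2 of signal + 5, centred on each gene's mean, on the 4 arrays for Mbd1 (thick red line) and the 5 genes with the nearest profiles (thin lines), at distances of 0.19 to 0.47. All 6 lines are above 0 on both RA arrays and below 0 on both vehicle arrays, and Spon2 departs most from Mbd1 on the second RA array.

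Some measures of sample makeup and RNA quality moved with the groups, while others overlapped between them. Over all genes above the filter, 14.2% had both RA arrays above both vehicle arrays and 12.6% had both below. Of 8 germ cell markers 6 were analysed here, 5 with negative differences and 1, Dazl, with separate groups. Their summed signal overlapped between the groups, at 4369 to 5386 with RA and 5039.6 to 5644 with vehicle. The ratio of 3′ to 5′ signal of the control transcript Actb was 2.08 and 2.32 with RA and 1.72 and 1.73 with vehicle, and that of Gapdh was 1.85 and 2.00 with RA and 1.56 and 1.47 with vehicle. All 6 endothelial markers had positive differences, 3 of 6 with separate groups, and their summed signal was 306 to 335 with RA and 233 to 270.0 with vehicle. Of 6 Sertoli cell markers 4 passed the filter, 2 of them with both RA arrays above both vehicle arrays, and the summed signal was 1174 to 1351 with RA and 922 to 1022 with vehicle. The defining Sertoli markers Amh and Fshr were below the filter. Mast cell markers had 5 of 5 negative values above the filter, 2 with separate groups, but their summed signal overlapped (2106 and 6578 with RA, 3062 and 6861 with vehicle). Arrays numbered 2 exceeded those numbered 1 by 1.62 for Cpa3, 1.29 for Cma1 and 1.62 for Tpsb2 on the log2 scale. Their RA minus vehicle values were smaller, at −0.36, −0.12 and −0.07. For Mcpt4 (0.94 and −0.95) and Ms4a2 (1.71 and −1.79) the replicate number and RA differences were about equal in size. The summed signal of 4 Leydig cell markers was 1509 and 1978 with RA and 1374 and 2495 with vehicle. That of 6 macrophage markers was 347 and 626 with RA and 344 and 742 with vehicle. Both sums overlapped between the groups, and in each group the array numbered 2 was the higher. The part of these measures in the Mbd1 difference was not tested.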

How the data were processed

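Expression was measured in 2 RA and 2 vehicle samples, 1 array each. Per the labels' protocols, NuGEN Ovation amplification started from 75 ng of total RNA, the arrays were Affymetrix Mouse Genome 430 2.0, and GCOS 1.2 quantified the images. The deposited values are linear intensities, 1 for each probe set on each array, and the sources used here do not state how probes were combined and scaled. The means with 2% trimmed at each end were 124 to 125 on the 4 arrays, so no further normalization was applied. Amplification of small RNA amounts favours 3′ ends, so probe sets far from them can read low.

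After 64 control probe sets were removed, 45037 remained. Values were taken as log2(intensity + 5), and 27022 probe sets with a mean intensity at or above the 40th percentile were kept. RA minus vehicle was fitted with limma 3.58.1 in R 4.3.3 (eBayes with intensity trend, two-sided, Benjamini-Hochberg adjustment, 2 residual degrees of freedom), which was also tested on simulated data. Errors and intervals of probe sets below the filter came from the same fit without it. Gene names came from the platform annotation and were updated through Entrez IDs (34741 probe sets matched), and a gene was read from its brightest probe set by mean log2 value. Promoter windows came from RefSeq, build GRCm38.p6, and array probes were not placed on it.

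The members and gene lists were chosen with earlier results of these data known. Named were all members on every probe set, fixed examples and both extremes of each list, the RA targets, the neighbours of Mbd1 and Mbd2 and the 5 genes nearest to Mbd1 in profile. List genes that no probe set names alone are not analysed here. Alternatives covered normalization, pseudocounts of 1 and 20, the filter, the variance trend, leaving out each array, a block for the replicate number, the probe sets used and the gene value. Figures were drawn with matplotlib 3.10.9.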

Additional observations from a re-analysis of the deposited data

How the results depend on the processing

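Each of the 5 Mbd1 probe sets kept a positive difference under every alternative that was run on it (quantile normalization, equal array medians, pseudocounts of 1 and 20, and leaving out each array). The brightest was 2.03 with equal array medians. Dim Mbd1 probe sets followed the pseudocount: with 20 added, 1430838_x_at was 1.22, 1430837_a_at 1.64 and 1453678_at 1.77. The other members' brightest probe sets moved by less than the SD between replicates, pooled over both groups, with another normalization or pseudocount. Without 1 array in turn they ran from −0.09 to 0.27 for Mbd2, −0.10 to 0.50 for Mbd3, −0.67 to 0.00 for Mbd4 and −0.33 to 0.32 for Zbtb33.

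The count of 0 probe sets past the threshold depended on the arrays and on the model. Leaving out RA replicate 1 gave 53 higher and 49 lower, leaving out RA replicate 2 gave 58 higher and 111 lower, leaving out vehicle replicate 1 gave 1 higher and 0 lower, and leaving out vehicle replicate 2 gave 0 of either. It stayed at 0 with quantile normalization, equal array medians, both pseudocounts, both other filters and no variance trend. With the replicate number as a block it was 230 higher and 328 lower. That fit had 1 residual degree of freedom (main fit 2). Its prior degrees of freedom, the weight given to the variance shared by probe sets, were infinite (main fit 5.71). Each fit without 1 array also had 1 residual degree of freedom and left 1 group with a single array. The prior value was 28.2 and 29.6 without RA replicate 1 or 2, and 8.24 and 8.2 without vehicle replicate 1 or 2. Counts from these fits lean on this prior and are not read as calls that the main fit missed. The labels do not say what the replicate number marks, and 2 pairs cannot show that it pairs the samples. Deviations of same-numbered arrays from their group means did correlate across probe sets (r = 0.532). The cause was not tested.

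List medians ran from −0.188 to 0.0232 (MBD1 partners), −0.00525 to 0.183 (NuRD), −0.00937 to 0.0857 (repair), −0.0577 to 0.144 (deubiquitinase complex), −0.207 to −0.0155 (Kaiso partners), 0.0217 to 0.156 (CpG readers) and −0.355 to 0.058 (methylation enzymes) with 1 array left out. With equal array medians repair was 0.102 and CpG readers 0.0915, and the MBD1 partners were −0.341 when each gene took the mean of its probe sets.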
